A study of Mus musculus with 36 samples.

Results

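Myc was described here through the stretches of its transcript that were recovered with Argonaute 2 (Ago2), the protein that carries miRNAs to their targets, from mouse colonic tumours. A peak belonged to Myc when the authors' annotation named Myc as its target gene. This held for 2 of the 7730 merged peaks, of which 7585 were annotated, to 3933 genes. For both Myc peaks the annotation's Ensembl field lists the identifier of another gene, Mycbp2, beside that of Myc, though both lie inside the Myc gene. The peaks were thus chosen by the authors' peak calls on these same libraries, so that Myc has peaks is not a result. Myc was also singled out with the level of its stronger peak and that peak's difference between genotypes known, so both are given as descriptions, and the p-values beside them are no independent support.

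The tumours were of 2 genotypes, with 6 tumours each. The G12D tumours carried the oncogenic K-Ras-G12D allele as 1 copy, and the WT tumours carried wild-type K-Ras. All mice were C57BL/6, carried 1 Halo-Ago2 allele, a fusion of Ago2 with a tag that binds its resin covalently, and were homozygous for a floxed Apc, the tumour suppressor that restrains Wnt signalling, with 1 copy of Villin-CreER, a tamoxifen-inducible recombinase under an epithelial promoter. At 8 to 12 weeks of age, 4-hydroxytamoxifen (200 µl at 5 mg/ml) was given as an enema, and the tumour tissue was taken when the mice became moribund. The sample records also give UV irradiation at 400 mJ/cm², applied 3 times, for all samples of both genotypes. The tissue was scraped or resected whole, so that it is bulk tissue. The labels place 3 G12D and 3 WT tumours in each of 2 batches, numbered 1 to 3 in batch 1 and 4 to 6 in batch 2. From every tumour 3 libraries were made (miRNA pulled down with Ago2, mRNA pulled down with Ago2, and input control), 36 in all, and no values of the input controls were used here. Nothing in the labels says outright that the numbered samples are separate mice, and p-values measure only the spread between these samples.

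Myc is a transcription factor that pairs with Max to activate genes of growth, ribosome production and metabolism. In the gut its gene is a target of the Wnt pathway, and loss of Apc raises it. Its mRNA and protein are short-lived, and its 3' UTR, the untranslated end of the mRNA, is a place where miRNAs and RNA-binding proteins act. A miRNA guides Ago2 mostly by its seed, bases 2 to 8 from its 5′ end. In the authors' site classes, 7m8 is a match to bases 2 to 8, 7A1 a match to bases 2 to 7 followed by an A, and 6mer a match to bases 2 to 7 alone.

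The gene lies on the plus strand of chromosome 15, at 61985341 to 61990361 in the mouse build GRCm38 (mm10). The 3' UTR peak covers chr15:61990008-61990078, 71 bases that begin 4667 bases after the gene's start and end 283 bases before its end. The other peak covers chr15:61988213-61988269, 57 bases annotated as exonic with no UTR label, 2872 bases after the gene's start, and is called the exonic peak. The 2 peaks lie 1738 bases apart on the genome.

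The annotation gives the 3' UTR peak a 7A1 site of the miR-135a/b family and 6mer sites of the miR-21a/c and miR-34/miR-449 families. It gives the exonic peak a 7m8 site of miR-24-3p, a 7A1 site of miR-103-3p/miR-107-3p and a 6mer site of miR-328-3p. Neither Myc peak holds a site of let-7, a family with sites in 847 peaks (11.2% of the annotated ones). The mature miRNAs that share these seeds are shown so that the seeds can be compared, with the seed (bases 2 to 8) in capitals. They are credited to RefSeq with the build GRCm38.p6, which held 10 of the 13 family members. The miRNAs miR-135b-5p, miR-34c-5p and miR-328-3p also belong to these families.

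Families with a site in the 3' UTR peak:
mmu-miR-135a-5p: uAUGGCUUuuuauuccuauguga
mmu-miR-21a-5p: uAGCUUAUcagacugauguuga
mmu-miR-21c: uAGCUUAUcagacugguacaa
mmu-miR-34a-5p: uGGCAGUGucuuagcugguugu
mmu-miR-34b-5p: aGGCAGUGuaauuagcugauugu
mmu-miR-449a-5p: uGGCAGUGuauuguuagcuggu
mmu-miR-449c-5p: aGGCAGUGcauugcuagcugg
Families with a site in the exonic peak:
mmu-miR-24-3p: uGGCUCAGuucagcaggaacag
mmu-miR-103-3p: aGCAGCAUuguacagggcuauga
mmu-miR-107-3p: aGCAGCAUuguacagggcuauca

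Read against these seeds, the 7A1 match of miR-135a has the letters AGCCAUA in the mRNA, the 6mer match of miR-21a/c UAAGCU and the 6mer match of miR-34/miR-449 ACUGCC. In the exonic peak, the 7m8 match of miR-24-3p is CUGAGCC and the 7A1 match of miR-103-3p/miR-107-3p UGCUGCA. These letters were derived from the seeds and the site classes, and were not read from the sequence of Myc. Among the annotated peaks, 35.6% had an 8mer as their best site, 29.5% a 7m8, 10.9% a 7A1, 12.6% a 6mer and 11.4% none. The best site of the Myc 3' UTR peak is therefore of a class held by 827 peaks. Of the 20 annotated peaks of highest mean, 3 had a 7A1 as their best site, this Myc peak among them, against 10 with an 8mer.

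Reads recovered in peaks came to 125384 to 974013 per G12D library and to 30607 to 770237 per WT library. In WT replicates 5 and 6, both in batch 2, 59.8% and 34.01% of the peaks had no read, against 1.14% to 5.85% in the other 10 libraries, and results were also computed without them. Colon epithelial markers had peaks for 8 of 10 genes, and Krt18 and Lgals4 had none. Marker signal was summed over the strongest peak of each gene only. For the epithelial markers it was 1961 to 8126 normalised counts in G12D and 439 to 8175 in WT tumours. Of this, the Muc2 peak alone averaged 2323 in G12D and 2820 in WT tumours. Peaks were found on 3 of 10 fibroblast and smooth muscle markers, all collagens, with 104 to 286 in G12D and 4.53 to 269 in WT tumours. One of 10 leukocyte markers had a peak (Cd14, 25.5 to 72.7 in G12D and 0 to 34.1 in WT tumours), as did 0 of 5 endothelial markers. The part of these cell types in the values of Myc was not tested. In bulk tissue, fewer cells of a type and less RNA per cell cannot be told apart, and without the input libraries the level of Myc mRNA and its binding by Ago2 cannot be told apart.

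Nearly all of the signal on Myc lay on its 3' UTR peak, which was among the strongest of the whole data set. In G12D tumours it had 2106, 1582 and 1803 normalised counts in batch 1 and 8295, 4348 and 5673 in batch 2. In WT tumours it had 496, 682 and 986 in batch 1 and 2762, 793 and 831 in batch 2. Within each batch, all 3 G12D tumours lay above all 3 WT tumours. Across batches the genotypes overlapped, since WT replicate 4 lay above the 3 G12D tumours of batch 1. The 3' UTR peak averaged 3968 ± 2669 in G12D and 1092 ± 834 in WT tumours (SD, n = 6 each).

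These values rest on many reads: 779 to 9704 in G12D and 175 to 5593 in WT libraries. Counting error is small beside the spread between tumours if each read is its own molecule, which is not known. The 3' UTR peak was the strongest peak in the library of all 3 G12D tumours of batch 2, and stood at ranks 8, 8 and 5 in batch 1. In WT tumours it stood at ranks 20, 26 and 13 in batch 1 and 3, 15 and 14 in batch 2. By the mean over tumours it was rank 1 in G12D and rank 10 in WT of the 7730 peaks, and first among the 3761 peaks with a 3' UTR label.

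The exonic peak was weak. In G12D tumours it had 22.2, 24.2 and 11.6 normalised counts in batch 1 and 55.6, 26.8 and 46.8 in batch 2. In WT tumours it had 6.85, 1.89 and 10.1 in batch 1 and 15.8, 0 and 14.5 in batch 2. All 3 G12D tumours were above all 3 WT tumours in each batch, but the WT values rest on 0 to 32 reads. WT replicate 5 had no read there, where 3 reads would have been 13.6 normalised counts. By its mean the exonic peak ranked 3633 of 7730, which puts it near the middle of all peaks.

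**Figure D1:**
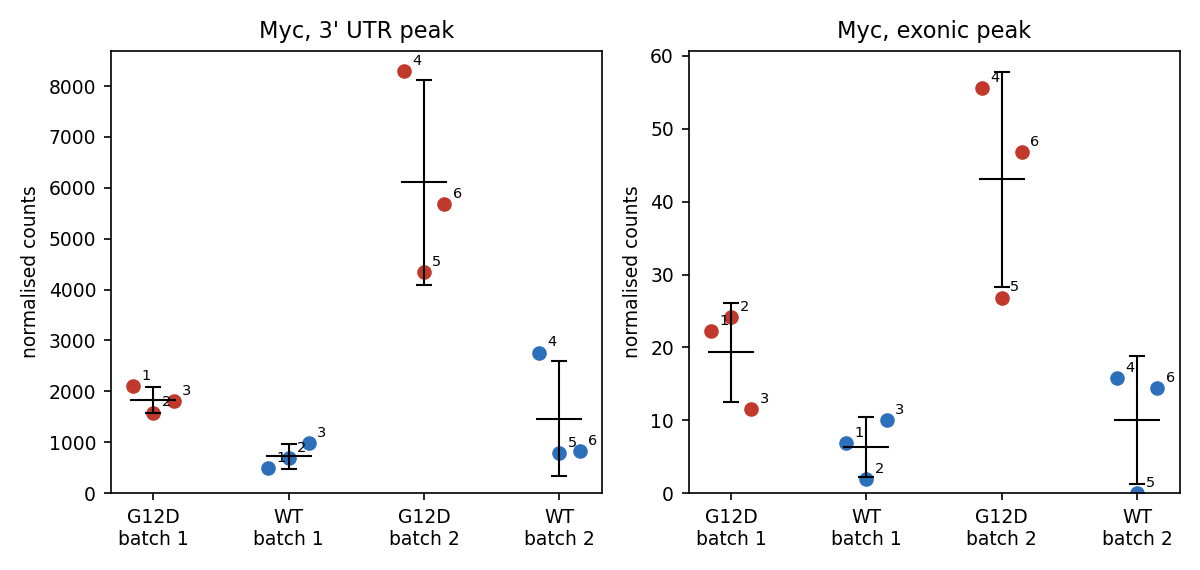
Normalised counts (vertical axis, linear) of the Myc 3' UTR peak (left) and the Myc exonic peak (right) in the 12 tumours, by genotype and batch. Points are tumours with their replicate number, long bars the mean of 3 tumours and whiskers the SD. In each batch all G12D points lie above all WT points, and WT replicate 4, at 2762, lies above the G12D tumours of batch 1 on the 3' UTR peak.

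The authors' lists of peaks, 1 per genotype, tell the same order of the 2 peaks. The score in these lists is the authors' own and its unit is not stated, so it was used for ranks inside each list. The 3' UTR peak was rank 13 of 7569 in the G12D list (score 39.5, list median 5.16) and rank 21 of 2186 in the WT list (score 14.5, list median 5.36). The exonic peak was rank 7173 in the G12D list with a score of 1.82, near the foot of that list. It overlapped no peak of the WT list. The WT list is far shorter, with 2186 peaks against 7569, and how many other peaks lack an overlap with it was not counted. The absence is therefore not read as a trait of this peak.

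Among genes with 2 or more peaks, few had their signal so concentrated on a single peak. The strongest peak held 99.2% of the mean signal of Myc, and only 3 of the 1629 genes that had 2 or more peaks and a read in any of them had a higher share. The median over those genes was 58.9%, and it was 66.2% over the 818 of them that had 2 peaks like Myc. Of all genes, 819 had 2 peaks like Myc, 2295 had 1 and 819 had 3 or more. By its summed mean signal Myc ranked 6 of 3933 genes.

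This split between the peaks did not differ detectably between genotypes. The 3' UTR peak held 98.5% to 99.4% of the reads on Myc in G12D tumours (median 99.3%) and 98.3% to 100.0% in WT tumours (median 99.2%). The log2 ratio of the 3' UTR peak to the exonic peak differed by -0.17 (exact permutation test over tumours, two-sided, p = 0.725), with 0.5 reads added to each count. The sign of this difference turned without WT replicate 2 or without WT replicate 5, where it was 0.0036 and 0.11. The few reads on the exonic peak limit this ratio.

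The comparison of genotypes asked whether oncogenic K-Ras goes with more Ago2-bound Myc RNA. With the authors' normalisation, the 3' UTR peak was higher in G12D by 1.83 on the log2(value + 1) scale (SE 0.49) and the exonic peak by 2.17 (SE 0.74), in limma with batch as a covariate. Neither passed the threshold of 0.05 after Benjamini-Hochberg adjustment over the 7527 peaks tested (limma, adjusted p = 0.108 for each). Without WT replicate 5, which had no read on the exonic peak, that peak was higher by 1.52 (SE 0.50, adjusted p = 0.197). The same limma fit called no peak higher (0%), while 35.9% of peaks were higher at an unadjusted p under 0.05, as were both Myc peaks. In the authors' deposited table, made with DESeq2, both were called higher, at a log2 fold change of 1.70 (SE 0.42, adjusted p = 0.00615) for the 3' UTR peak and 1.72 (SE 0.47, adjusted p = 0.0128) for the exonic peak. That table called 9.92% of 7613 peaks higher. edgeR on the recovered reads gave 1.70 and 1.74 (adjusted p = 0.159 and 0.189) and called 0.0531% of peaks higher.

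Most peaks were higher in G12D under this normalisation, so the Myc values stand on a raised background. The median log2 fold change of all tested peaks was 1.33 in limma. Relative to it, the 3' UTR peak stood at 0.50 and the exonic peak at 0.85, and 20.6% and 8.52% of peaks had a larger fold change. For the 3' UTR peak this standing moved with the fit. Larger fold changes were held by 3.24% of peaks with a pseudocount of 5, 6.24% in edgeR and 6.59% in DESeq2. In limma with TMM or median-ratio factors on peaks, they were held by 38.2% and 39.0%. The separation of genotypes in each batch that both Myc peaks showed held for 8.72% of the peaks tested, and for 15.5% in batch 1 and 40.7% in batch 2 taken alone. Both Myc peaks were called in limma without WT replicate 4 (2.04 and 2.42, adjusted p = 0.0159 and 0.0203), when 45.1% of all peaks were called higher, and with a pseudocount of 5, when 6.72% were. The raised background depends on the scaling. The median was 1.33 in limma and 0.85 in DESeq2 with the authors' factors. With median-ratio factors computed on peaks it was 0.54 in limma and 0.07 in DESeq2. In DESeq2 with those factors, 0.974% of 4518 peaks were called higher and 1.66% lower. Under that scaling the 3' UTR peak was higher by 0.74 (adjusted p = 0.0359) and the exonic peak by 0.83 (adjusted p = 0.433).

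**Figure D2:**
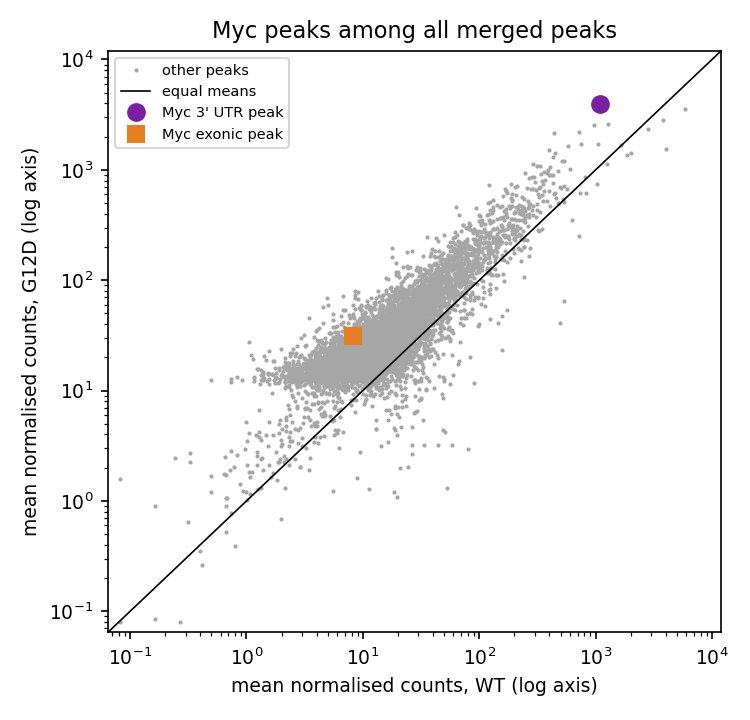
Mean normalised counts of 7649 merged peaks in G12D (vertical) and WT (horizontal) tumours, both on log axes; the 81 peaks with a mean of 0 in either genotype are not drawn. The cloud lies above the line of equal means, and the Myc 3' UTR peak, at 3968 in G12D and 1092 in WT, has the highest G12D mean of all.

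The 2 batches placed Myc differently against this background. In batch 1 the 3' UTR peak was higher by 1.39 and the median peak by 0.43, which leaves 0.96. In batch 2 the 3' UTR peak was higher by 2.27 and the median peak by 2.29, which leaves -0.02. The exonic peak stood at 1.19 above the median in batch 1 and 0.43 in batch 2. Batch 2 holds both shallow WT libraries, and without them the 3' UTR peak was higher by 1.29, or 0.91 above a median of 0.38. The exonic peak was then higher by 1.53, or 1.15 above it. Before any median was taken out, the genotype effect was larger in batch 2 by 0.88 for the 3' UTR peak and by 1.10 for the exonic peak. Neither difference was past the threshold (limma, adjusted p = 0.554 and 0.602). The median of this difference over all peaks was 1.79, and relative to it the 2 Myc peaks stood at -0.91 and -0.69. The limma test covers the difference before subtraction, and the change in standing against the median was not tested.

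**Figure D3:**
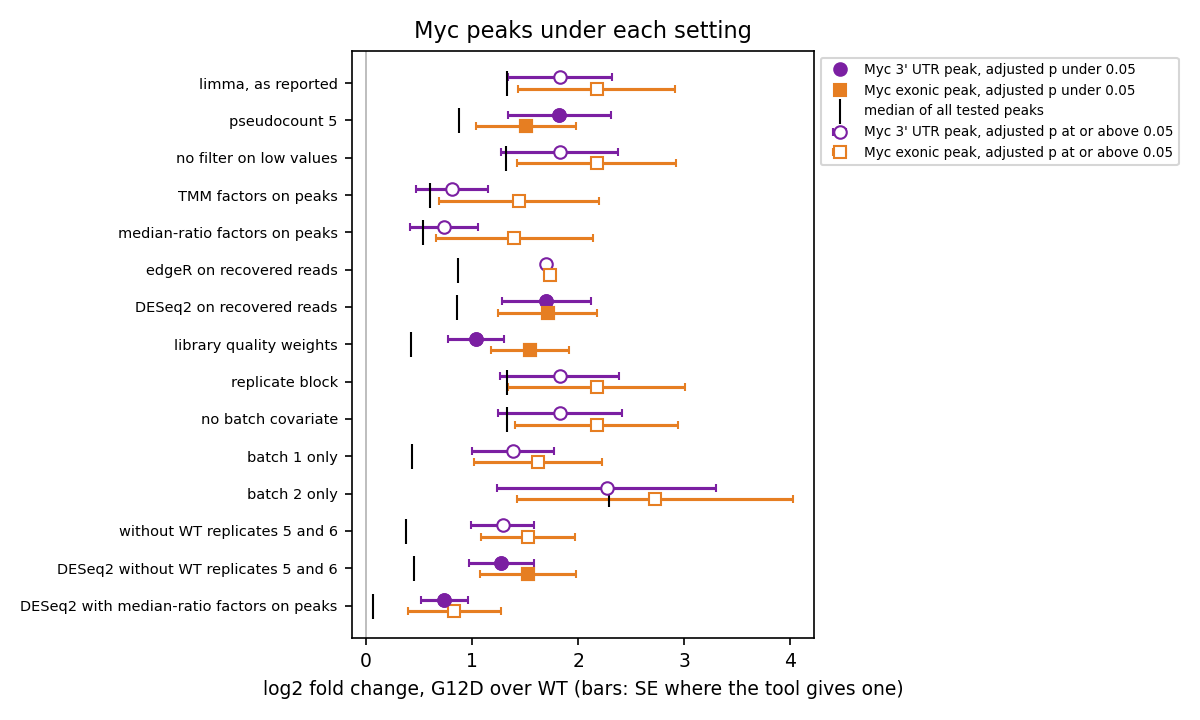
Log2 fold change of the Myc 3' UTR peak (circles) and exonic peak (squares), G12D over WT, under the reported fit and each alternative (rows); whiskers are SEs where the tool gives one, filled symbols have an adjusted p under 0.05 and black ticks mark the median of all tested peaks. Both Myc peaks lie above 0 in every row, at 0.74 to 2.27 for the 3' UTR peak and 0.83 to 2.73 for the exonic peak, while the median tick moves between rows.

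The share of a library's peak reads does not depend on the size factors, and it gave a steadier picture. Myc took 0.459%, 0.544% and 0.6253% of the reads in peaks in G12D tumours of batch 1, from lowest to highest, and 0.871%, 1.28% and 1.55% in batch 2. In WT tumours it took 0.221%, 0.284% and 0.356% in batch 1 and 0.572%, 0.615% and 0.730% in batch 2. G12D tumours were above WT tumours in both batches without overlap, and the WT tumours of batch 2 were close to the G12D tumours of batch 1. On the log2 scale the G12D share was higher by 0.93 in batch 1 and 0.92 in batch 2.

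Over all 12 tumours the log2 difference of the share was 0.93 (exact permutation test, two-sided, p = 0.0519). With labels exchanged within batches the exact p was 0.005, the smallest that 400 arrangements can give. Within a single batch, the exact test of 3 tumours against 3 cannot go below p = 0.1, and both batches gave that value. Without WT replicates 5 and 6 the difference was 1.17 (exact p = 0.0429). Leaving out single tumours gave 0.74 to 1.09, with exact p from 0.0346 to 0.102, and p fell below 0.05 without G12D replicate 1, G12D replicate 2, WT replicate 4 or WT replicate 6 (exact p = 0.0433, 0.0346, 0.0346 and 0.0455).

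Taken peak by peak, the share of the 3' UTR peak was separated in both batches, which held for 1.38% of the 7527 peaks, while 0.399% were separated the other way. The exonic peak's share was separated in batch 1 but not in batch 2, where WT replicate 6 had 6 of 57037 reads. The log2 difference of the share was 0.92 for the 3' UTR peak and 1.10 for the exonic peak, against a median of 0.26 over all peaks. A larger difference was found for 13.9% and 8.29% of the peaks.

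**Figure D4:**
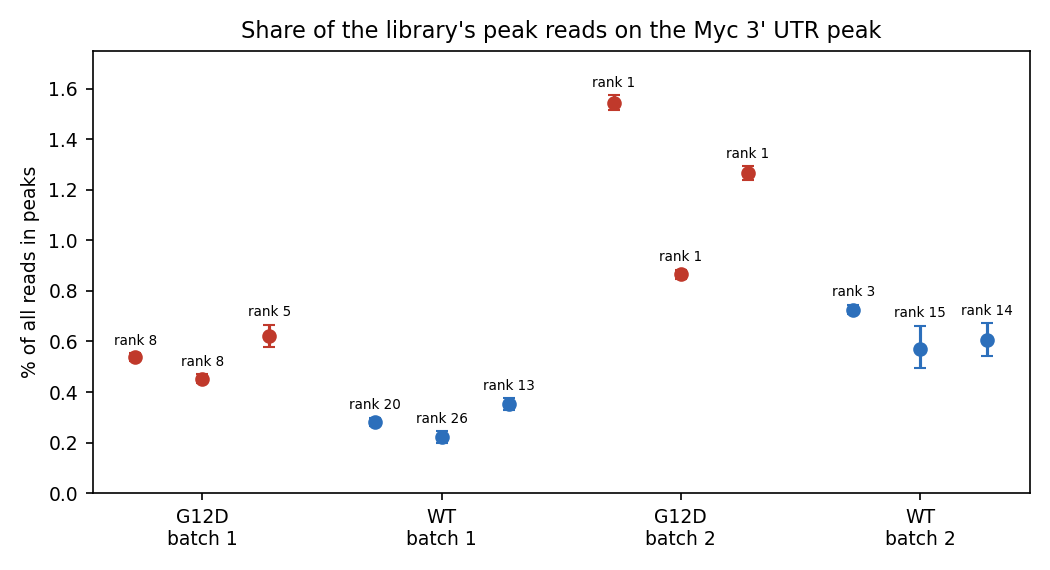
Share of all reads in peaks that fell on the Myc 3' UTR peak (vertical axis, percent) in the 12 tumours by genotype and batch, with 95% Wilson intervals that cover counting error only; labels give the peak's rank among all peaks of that library. G12D tumours lie above WT tumours in each batch, and all 3 G12D tumours of batch 2 have the peak at rank 1.

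Batch also moved with the level of the 3' UTR peak. Batch 2 was higher than batch 1 by 1.26 in the same limma fit (SE 0.49, adjusted p = 0.104), while the median of all peaks was -0.29. The exonic peak was higher in batch 2 by 0.57 (SE 0.74, adjusted p = 0.669). Of all peaks, 3.02% were called higher and 5.99% lower in batch 2, and neither Myc peak was among them.

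Of the miRNA families with a site in the 3' UTR peak, the miR-135 family was the one whose most abundant member was higher in G12D. miR-135b-5p, reported as abundant in cancers of the colon, had 1635 to 3758 normalised counts in G12D (median 2632) and 439 to 1835 in WT tumours (median 1142). The genotypes overlapped only in part, and G12D replicate 4 was the one G12D tumour within the WT range. It averaged 2741 ± 755 in G12D and 1202 ± 487 in WT tumours (SD, n = 6 each), a log2 difference of 1.27 (limma, SE 0.31, adjusted p = 0.0385). Of the 284 miRNAs tested, 1.76% were called higher and 2.11% lower. The call was lost in batch 2 alone and when any 1 of 8 tumours was left out (G12D replicates 1, 2, 3, 5 and 6 and WT replicates 1, 2 and 3), and over all 12 such fits the adjusted p lay between 0.0145 and 0.0944. The other member, miR-135a-5p, averaged 16.1 ± 6.21 in G12D and 24.0 ± 13.2 in WT tumours.

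miR-21a-5p, a miRNA abundant in many carcinomas, was the most abundant of the 596 miRNAs. It had 15348 to 29656 normalised counts in G12D tumours (median 20045) and 15879 to 26808 in WT tumours (median 21028), ranges that overlap almost wholly. Its log2 difference was -0.03 (limma, SE 0.08, adjusted p = 0.845). The spread followed batch, with every tumour of batch 1 above every tumour of batch 2 in either genotype.

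The miR-34/miR-449 family is known as a target of p53 in the case of miR-34, while miR-449 is known from cells with cilia. Its sum was 5054 to 8205 normalised counts in G12D tumours (median 6313) and 5999 to 8377 in WT tumours (median 6767), and nearly all of it was miR-34a-5p, at 6154 ± 1075 in G12D and 6561 ± 792 in WT tumours (SD, n = 6 each; limma log2 difference -0.10, adjusted p = 0.634). The minor member miR-449a-5p fell, with 82.1 ± 20.8 in G12D and 240 ± 122 in WT tumours and a log2 difference of -1.43 (limma, SE 0.28, adjusted p = 0.0158). The call was lost in batch 1 alone (-1.34, adjusted p = 0.0851) and in batch 2 alone (-1.51, adjusted p = 0.291). miR-449c-5p, at 8.35 ± 3.30 in G12D and 25.4 ± 15.6 in WT tumours, did not pass in limma (adjusted p = 0.0857) and did in the authors' deposited table (adjusted p = 0.0142), which called 2.55% of miRNAs higher and 4.63% lower. miR-34b-5p and miR-34c-5p did not pass.

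Of the families with a site in the exonic peak, none had a member past the threshold. miR-24-3p had 5843 to 9329 normalised counts in G12D tumours (median 8007) and 6393 to 10091 in WT tumours (median 7770), with a log2 difference of -0.01 (limma, SE 0.09, adjusted p = 0.934). miR-103-3p averaged 1134 ± 202 in G12D and 886 ± 165 in WT tumours (log2 difference 0.36, adjusted p = 0.244 in limma). miR-328-3p averaged 294 ± 52.0 in G12D and 348 ± 81.1 in WT tumours (log2 difference -0.23, adjusted p = 0.513 in limma). In all, 2 of the 12 measured miRNAs of the 6 families passed, 1 in each direction. Of all 284 miRNAs tested, the same fit called 1.76% higher and 2.11% lower.

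**Figure D5:**
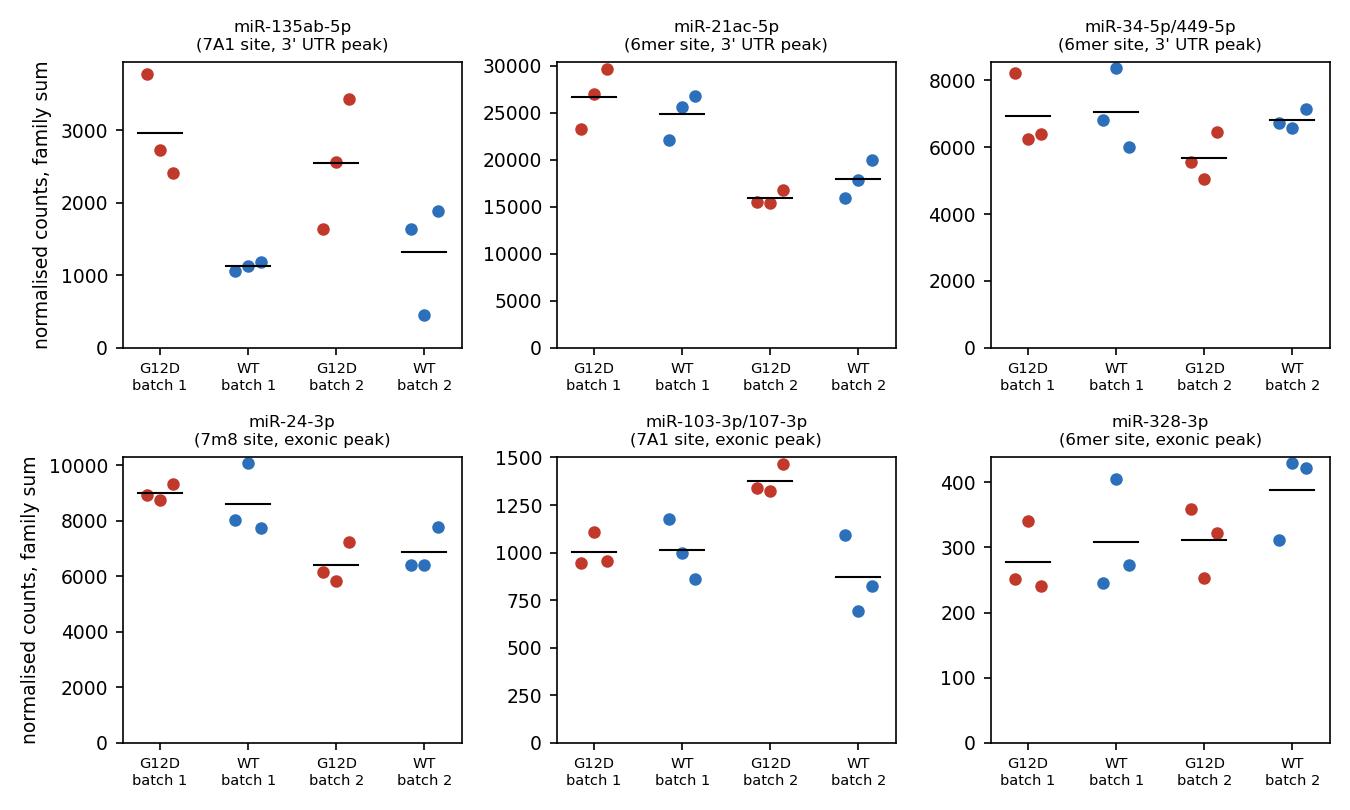
Summed normalised counts of each miRNA family with a site in a Myc peak (vertical axes, linear from 0) in the 12 tumours by genotype and batch; points are tumours and bars the mean of 3. The miR-135 family is higher in G12D, at 1646 to 3773 against 455 to 1882 in WT, while the miR-21 family separates by batch.

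Among the peaks that hold sites of the same families, the Myc 3' UTR peak was the strongest for each of its 3 families by mean. By the mean over all 12 tumours this peak ranked 5 of all 7730, so being first for each family largely restates its own level. It was first of 170 peaks with a miR-135a/b site, ahead of one on Ndufa4, a mitochondrial protein, with a mean of 539 normalised counts. It held 15.5% to 48.3% of the signal on such peaks in G12D tumours (median 28.6%) and 9.01% to 36.0% in WT tumours (median 14.3%). It was also first of 146 peaks with a miR-21a/c site, ahead of Taf7, a subunit of the general transcription factor TFIID, at 524. There it held 23.2% to 53.4% of the signal in G12D (median 35.1%) and 12.3% to 40.0% in WT tumours (median 18.5%). Of 173 peaks with a miR-34/miR-449 site it was first, ahead of the mucin gene Muc3 at 1672, with 10.8% to 42.9% in G12D (median 25.9%) and 5.34% to 45.0% in WT tumours (median 17.9%). The genotypes overlap in all 3 shares, and a peak with sites of 3 families is counted in each. The exonic peak ranked 247 of 487 peaks with a miR-24-3p site, 305 of 646 with a miR-103-3p/miR-107-3p site and 57 of 103 with a miR-328-3p site.

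The level of a family in a tumour did not track the Myc share in a way that passed adjustment. In all, 6 relations were computed between the log2 family sum and the log2 share of the Myc peak that holds its site. For the miR-135 family, Pearson's r over 12 tumours was 0.39 (permutation p = 0.210, adjusted p = 0.315) and Spearman's rho 0.41 (permutation p = 0.185, adjusted p = 0.369). Without the 2 tumours farthest from the median r was 0.65, and within batches 1 and 2 it was 0.85 and 0.55. With the means of each genotype and batch taken out, r was 0.02. For the miR-21 family the batches did not overlap in level, so r is given within batches only, at 0.42 in batch 1 and -0.60 in batch 2 (n = 6 each; exact permutation p = 0.407 and 0.199; both with rho of the same sign, 0.54 and -0.66, exact p = 0.297 and 0.175). Over the 12 relations within batches no adjusted p was below 0.5.

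The other 4 families, whose batches overlapped in level, gave an r of 0.46 for miR-103-3p/miR-107-3p, -0.29 for miR-24-3p, -0.17 for miR-328-3p and -0.55 for miR-34/miR-449. Their permutation p-values were 0.136, 0.373, 0.587 and 0.0603, or 0.272, 0.448, 0.587 and 0.181 after adjustment. Their rho was 0.36, -0.18, 0.06 and -0.51, with permutation p-values of 0.257, 0.574, 0.853 and 0.0938, or 0.385, 0.689, 0.853 and 0.281 after adjustment. Without the 2 farthest tumours r was 0.11, 0.10, -0.21 and -0.32.

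Of 38 genes of the Myc network (partners, antagonists, regulators of its stability and of its mRNA), 14 had a peak. They had 44 peaks in all. Max, the partner of Myc, had 2 peaks, and Mycn, Mycl, the ubiquitin ligase gene Fbxw7 and the neighbouring noncoding gene Pvt1 had none. By mean the strongest of the network were on Huwe1 and Mlxip, followed by Mxd1, which competes with Myc for Max. The peak on Huwe1, a ubiquitin ligase that acts on Myc, averaged 466 ± 295 normalised counts in G12D and 157 ± 200 in WT tumours. That on Mlxip, a relative of Myc that responds to glucose, averaged 450 ± 319 in G12D and 94.4 ± 98.6 in WT tumours. That on Mxd1 averaged 169 ± 88.6 in G12D and 80.7 ± 53.1 in WT tumours.

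The limma fit called 0 of the 14 network genes at their strongest peak, with 6 higher and 0 lower at an unadjusted p under 0.05, beside 35.9% of all peaks that were higher at that p. edgeR called 4 of all 7527 peaks higher. DESeq2 on the recovered reads called 2 of them higher, Mlxip (adjusted p = 0.0182) and Hnrnpd, an RNA-binding protein gene (adjusted p = 0.0164), named here after its values were seen, beside 9.92% of all peaks. These counts lie near those backgrounds. The median log2 difference over the 14 was 1.45, beside 1.33 for all peaks. The limma differences were 2.23 for Huwe1, 2.41 for Mlxip and 1.08 for Mxd1.

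Of 35 genes known as transcriptional targets of Myc, 19 had a peak. The strongest were on Slc7a5, an amino acid transporter, Cdc25a, a cell-cycle phosphatase, and Pkm, a glycolytic enzyme. Slc7a5 averaged 257 ± 87.3 in G12D and 166 ± 147 in WT tumours, Cdc25a 202 ± 57.9 in G12D and 120 ± 103 in WT tumours, and Pkm 190 ± 72.5 in G12D and 81.5 ± 80.5 in WT tumours. limma called 0 of the 19, with 11 higher and 0 lower at an unadjusted p under 0.05, beside 35.9% of all peaks higher at that p. DESeq2 on the recovered reads called 2 higher, Srm, an enzyme of spermidine synthesis (adjusted p = 0.00654), and Ccnd2, a cyclin (adjusted p = 0.0303), both named after their values were seen, and 2 of 19 lies near the 9.92% of all peaks. The median log2 difference over the 19 was 1.73, beside 1.33 for all peaks, with WT replicates 5 and 6 included.

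The peaks whose course across the 12 libraries was most like that of the Myc 3' UTR peak lay on other chromosomes. Likeness was Pearson's r of log2(value + 1) after each library's median was subtracted, over 3495 peaks with a mean of at least 20, and it is a description, since the libraries share batch and depth. The median peak had 0 normalised counts in WT replicate 5 and 2.41 in WT replicate 6, against 10.8 to 27.8 in the others. Subtraction therefore removed little or nothing in these shallow libraries, and r was not computed without them. The 5 highest were on Zfp770 (r = 0.97, 270 ± 209 in G12D and 88.5 ± 94.4 in WT tumours), Kif21b, a kinesin gene (r = 0.97, 642 ± 671 in G12D and 171 ± 145 in WT tumours), Pthlh, which encodes parathyroid hormone-related protein (r = 0.97, 666 ± 676 in G12D and 288 ± 290 in WT tumours), Cmip (r = 0.96) and Zfc3h1 (r = 0.96). The median r of the peaks compared was 0.22. The Myc exonic peak had an r of 0.63, and 908 peaks lay above it.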

How the data were processed

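Halo-enhanced Ago2 pulldown libraries from 12 tumours were analysed from the deposited tables. The submitters' processing notes name STAR 2.5.2b, DESeq2 and the build GRCm38 (mm10) but not what each did, and no source used here names a peak caller. The deposited signal values are numbers of reads after division by 1 size factor for each library, made by the authors. Whole reads were recovered for 100% of values within 0.001 reads, and these deposited values thus give counts, where a single mRNA library read equals 0.482 to 4.53 normalised counts. The headers of the peak columns give model and number only, and they were read as mRNA libraries. The authors' deposited table holds log2 fold changes and p-values, and the deposited peak lists a score of unstated unit. DESeq2 fitted here called the same features in the same direction as the authors' deposited table (782 of 782 peaks and 31 of 31 miRNAs).

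limma 3.58.1 (R 4.3.3) was fitted to log2(value + 1) with batch as a covariate, over 7527 peaks with a mean of at least 5 and 284 miRNAs with a mean of at least 10. edgeR 4.0.16 and DESeq2 1.42.0 on the recovered reads were alternatives, and the fits were tested on simulated data. Shares were compared by exact permutation of tumours and family relations by 100000 permutations. Intervals are 95% Wilson intervals and cover counting error only, since the reads may include copies of 1 molecule. Named were both Myc peaks, the most abundant miRNA of each site family, the 3 list genes of highest mean and the 5 peaks most like Myc; further members of the site families and a few list genes were added after their values were seen. The members and lists were chosen with earlier results of these data known. Same-numbered samples of the 2 genotypes did not deviate together (r between -0.62 and -0.02 for peaks and between -0.25 and 0.12 for miRNAs). These deviations came from a fit without a genotype-by-batch term, which can lower r between samples of the same batch. That check therefore cannot settle whether the numbers are pairs. The labels state no pairing, and numbers were not taken as pairs. Exonic and 3' UTR labels and seed sites are the authors' annotation.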

Additional observations from a re-analysis of the deposited data

Results flagged for a closer look

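In 34 groups of 6 tumours, a single value was set against the others by Dixon's test, where chance flags about 1 in 20 groups. On the Myc 3' UTR peak, WT replicate 4 stood apart with 2762 normalised counts, against 496 to 986 in the other WT tumours. By share of reads the same library had 0.726% on this peak, and WT replicates 5 and 6 of its batch had 0.572% and 0.605%. For miR-107-3p, WT replicate 1 had 116 normalised counts, against 28.5 to 55.1 in the other WT tumours. WT replicate 5 stood apart for miR-34b-5p, with 63.9 against 8.42 to 23.3, and for miR-34c-5p, with 212 against 29.7 to 77.9.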

How the results depend on the processing

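Both Myc peaks were higher in G12D under every setting tried, and the settings decided whether they passed. The 3' UTR peak passed with a pseudocount of 5 (1.82, adjusted p = 0.0346), DESeq2 (1.70), library quality weights (1.04, adjusted p = 0.0116) and in 2 settings added after seeing the data, DESeq2 without WT replicates 5 and 6 (1.28, adjusted p = 0.00464) and DESeq2 with median-ratio factors (0.74, adjusted p = 0.0359). The exonic peak passed with a pseudocount of 5 (1.51, adjusted p = 0.0450), DESeq2 (1.72), quality weights (1.55, adjusted p = 0.00764) and DESeq2 without WT replicates 5 and 6 (1.53, adjusted p = 0.0379). These fits called 6.72% (pseudocount 5), 10.8% (quality weights) and 2.11% (DESeq2 without both libraries) of peaks higher. With median-ratio factors DESeq2 called 0.974% higher and 1.66% lower, and limma put the peaks at 0.74 and 1.40 above 0, with a median of 0.54 and 39.0% and 11.3% of peaks larger. With TMM factors in limma the values were 0.81 and 1.44, above a median of 0.60. Leaving out each tumour gave 1.64 to 2.04 and 1.52 to 2.42, and both peaks passed without WT replicate 4 (2.04 and 2.42), when 45.1% of peaks did. The cause was not tested. The Myc share difference passed when labels were exchanged within batches (0.93), without WT replicates 5 and 6 (1.17, exact p = 0.0429) and, added later, with both (1.17, exact p = 0.0125), and lay between 0.74 and 1.09 with single tumours left out. The split between the peaks ranged from -0.43 to 0.11 with single tumours left out and turned sign without WT replicate 2 (0.0036) or WT replicate 5 (0.11). The number of family miRNAs past the threshold (2) was 1 with the replicate block, 1 in batch 1 and 0 in batch 2, and 1 to 3 with single tumours left out. Of all miRNAs, the replicate block called 1 of 284 higher and 5 lower. Batch 1 called 2 of 277 higher and 1 lower, and batch 2 called 0 of 285 in either direction. Pairing by replicate number is not stated in the labels and could not be settled from the values. With the replicate block in limma the Myc peaks stood at 1.83 (adjusted p = 0.118) and 2.17 (adjusted p = 0.139), and miR-135b-5p had an adjusted p of 0.0516. Among miRNAs that did not pass, signs turned for miR-24-3p (0.0721 in batch 1, 0.0458 without WT replicates 5 and 6, -0.0547 to 0.0384 with single tumours left out), miR-107-3p (-0.0392 in DESeq2, -0.0359 in edgeR, -0.39 in batch 1, -0.12 without WT replicates 5 and 6, -0.0502 to 0.39 with single tumours left out), miR-21a-5p (0.10 in batch 1, 0.0657 without WT replicates 5 and 6, -0.0848 to 0.0168 with single tumours left out) and miR-34a-5p (0.0046 in batch 1). A ratio within 3' UTR peaks of Myc could give no value, as Myc has 1 such peak. Depth limits the exonic peak, with 0 to 32 reads in WT libraries.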
